A study of Mus musculus with 16 samples.

Results

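The mitochondrial ribosomal protein genes were followed in RNA from wildtype x PyMT tumors and from gene trap x PyMT tumors of the mouse mammary gland. Members were all genes whose symbol is Mrpl or Mrps followed by a number and at most 1 letter, which gave 78 of the 23609 genes of the table. All 78 passed the filter on low values, a mean value of 10 or more, as did 21034 genes in all. The symbol alone decided which genes were members, although the family was chosen with earlier results of these data known. Of the 78, 51 encode proteins of the large subunit and 26 of the small subunit. *Mrps18a* and *Mrps30* carry a small subunit name and sit in the large subunit. *Mrps36* keeps a ribosomal name, but its product belongs to the 2-oxoglutarate dehydrogenase complex.

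The PyMT oncogene, a polyoma virus antigen driven by the MMTV promoter in the mammary epithelium, causes the tumors. Both groups carried MMTV-PyMT on an F1 background of FVB and C57BL/6, and neither was treated. Gene trap animals were heterozygous for the *Resf1* gene trap, a lentiviral cassette that sits in exon 1, cuts the transcript short and encodes EGFP fused to Cre, and wildtype animals were their littermates without the insertion. The insertion is carried by every cell of the animal, so tumor and stroma are not separated, and the line derives from 1 insertion. The ages of the animals are not given in the labels. The labels name 16 tumors, and values of 5 wildtype and 5 gene trap tumors could be matched by name.

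Mitochondria keep their own ribosome, the mitoribosome, which translates the few proteins encoded by mitochondrial DNA, all of them subunits of the respiratory chain and ATP synthase. Its ribosomal RNAs come from mitochondrial DNA, but all of its proteins are encoded in the nucleus, made in the cytosol and imported. Some of these proteins descend from bacterial ribosomal proteins and others are specific to mitochondria. Nuclear factors such as NRF1, the ETS factor GABP and YY1 are known regulators of nuclear genes for mitochondrial proteins.

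The members lie on 17 chromosomes, and many start beside another gene. RefSeq promoter windows of 300 bases (250 before and 50 after the start, build GRCm38.p6) were found for 69 of the 78 members. In 24 of these 69 members (34.8%) the window overlapped that of a gene on the opposite strand, compared with 11.9% of the 27025 genes with a window. The NRF1 motif searched was GCGCA, any base, GCGC, the ETS motif was CCGGAAGT and the YY1 motif was AAGATGGC, each on both strands. NRF1 motifs stood in 18.8% of the members' windows and in 5.19% of all genes, ETS motifs in 17.4% and 4.31%, and YY1 motifs in 17.4% and 3.19%. At least 1 of the 3 motifs was found in 49.3% of members and 11.7% of genes. Different motifs overlapped in 0 of the 75 windows of the members. A match is a description of the letters and not evidence of binding.

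Windows are shown for 6 members, 5′ to 3′ on the strand of the gene, with the motif letters in capitals. *Mrps11* shares its start region with *Mrpl46*, *Mrps21* had the highest level per kilobase of transcript, and *Mrps26*, *Mrps27* and *Mrpl32* are the 3 members that held 2 different motifs. *Mrpl47* had the smallest p between the groups and held none of the 3 motifs.
Mrps11, chr7:78782881-78783180, plus strand, YY1 motif: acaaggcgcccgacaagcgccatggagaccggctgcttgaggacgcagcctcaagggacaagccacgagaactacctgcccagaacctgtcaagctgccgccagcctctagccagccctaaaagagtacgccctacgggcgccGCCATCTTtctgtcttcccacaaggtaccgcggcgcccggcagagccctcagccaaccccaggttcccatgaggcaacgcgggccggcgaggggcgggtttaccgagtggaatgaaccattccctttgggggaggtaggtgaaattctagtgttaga
Mrps21, chr3:95871465-95871764, minus strand, NRF1 motif: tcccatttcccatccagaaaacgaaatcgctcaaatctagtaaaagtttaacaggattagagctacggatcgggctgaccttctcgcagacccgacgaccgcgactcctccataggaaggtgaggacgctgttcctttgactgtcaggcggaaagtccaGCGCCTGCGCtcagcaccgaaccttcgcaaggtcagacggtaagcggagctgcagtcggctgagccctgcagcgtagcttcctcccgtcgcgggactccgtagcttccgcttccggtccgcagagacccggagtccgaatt
Mrps26, chr2:130563507-130563806, plus strand, an ETS motif followed by 2 NRF1 matches that share bases: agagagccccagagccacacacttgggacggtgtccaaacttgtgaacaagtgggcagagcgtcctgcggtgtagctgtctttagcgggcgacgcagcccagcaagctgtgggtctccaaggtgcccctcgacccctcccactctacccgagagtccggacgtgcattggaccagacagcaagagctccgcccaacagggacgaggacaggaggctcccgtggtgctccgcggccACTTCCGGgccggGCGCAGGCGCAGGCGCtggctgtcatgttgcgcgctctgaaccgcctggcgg
Mrps27, chr13:99344536-99344835, plus strand, an ETS motif followed by a YY1 motif: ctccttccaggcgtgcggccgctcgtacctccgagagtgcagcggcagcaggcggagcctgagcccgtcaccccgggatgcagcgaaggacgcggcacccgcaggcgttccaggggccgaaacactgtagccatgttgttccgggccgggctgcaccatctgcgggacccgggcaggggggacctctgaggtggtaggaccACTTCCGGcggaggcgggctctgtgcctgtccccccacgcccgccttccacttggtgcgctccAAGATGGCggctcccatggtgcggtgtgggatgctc
Mrpl32, chr13:14612988-14613287, minus strand, a YY1 motif followed by an NRF1 motif: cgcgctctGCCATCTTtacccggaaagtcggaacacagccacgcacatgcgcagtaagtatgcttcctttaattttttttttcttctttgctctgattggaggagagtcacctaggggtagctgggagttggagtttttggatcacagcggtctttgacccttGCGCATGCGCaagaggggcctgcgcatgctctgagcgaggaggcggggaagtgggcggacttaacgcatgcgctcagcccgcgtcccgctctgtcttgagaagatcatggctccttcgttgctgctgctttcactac
Mrpl47, chr3:32736706-32737005, minus strand, no motif: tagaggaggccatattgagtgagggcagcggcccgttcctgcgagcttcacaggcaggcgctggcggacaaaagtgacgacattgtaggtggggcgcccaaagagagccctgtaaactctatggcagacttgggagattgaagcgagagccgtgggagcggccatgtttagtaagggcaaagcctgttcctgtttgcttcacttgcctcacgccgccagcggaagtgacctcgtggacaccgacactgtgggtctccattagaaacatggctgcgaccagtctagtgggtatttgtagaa

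The authors deposited values that were already normalized between tumors, so that they are not read counts and the depth of each tumor is unknown. Column totals lay between 31995078 and 42153593, and the highest was that of gene trap replicate 2. Values are given as deposited, and folds were computed on log2(value + 1), a scale that understates the change of low genes. Groups were compared with limma across all tested genes, with Benjamini-Hochberg adjustment. The labels do not state that each tumor came from its own animal, so the p-values measure the spread between these tumors. *Resf1* itself (ENSMUSG00000032712, chromosome 6) was 4215, 4397, 3881, 4487 and 3517 in the wildtype tumors and 4029, 3066, 3686, 3392 and 3409 in the gene trap tumors. The groups overlapped, and the log2 fold change was -0.22 (SE 0.091, unadjusted p = 0.031 and adjusted p = 0.9997 by limma). Luminal epithelial markers were measured in every tumor, with a summed value of 74381 to 98856 over 5 of 5 markers.

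Gene trap replicate 2 differed from the rest in most members, which touches every comparison of the groups. In this tumor the 78 member values summed to 105104. The sums were 71739, 78098, 75111, 73672 and 73214 in wildtype tumors and 69363, 69195, 80679 and 75694 in the other gene trap tumors, so that this tumor lay above all others and the rest of the groups overlapped. Members made up 0.249% of all values in gene trap replicate 2, and 0.201% to 0.228% in the other tumors. Gene trap replicate 2 was the highest of the 10 tumors for 62 of 78 members (79.5%), compared with 22.4% of all tested genes. The median member deviated by 0.47 on the log2 scale from the median of the other 9 tumors there, and by -0.12 to 0.10 in each of the others. Over all tested genes the same median was 0.011 in gene trap replicate 2. In that tumor 26 members were over 1.5-fold above the median of the others, 6 were over 2-fold above it and 6 were below it.

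**Figure D1:**
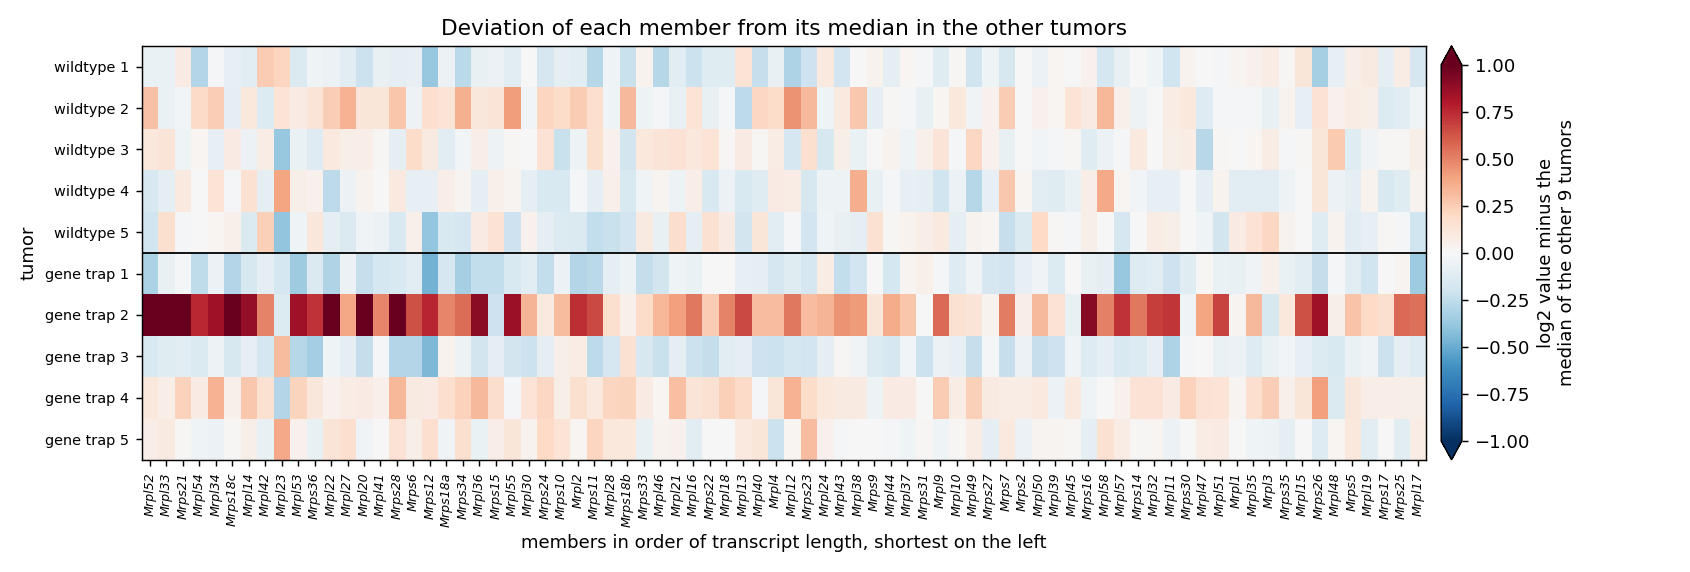
Deviation of the 78 members (columns, ordered by transcript length) in each of the 10 tumors (rows, a line between wildtype and gene trap), as the log2 value minus the median of the other 9 tumors. Gene trap replicate 2 is red across most members, with a median deviation of 0.47, and darkest among the shortest transcripts on the left.

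By the level per kilobase of transcript, members differed 25-fold, from 143 for *Mrpl47* to 3589 for *Mrps21*, with a median of 653. The highest were *Mrps21*, the counterpart of a small bacterial subunit protein, with 3176 ± 140 in wildtype and 4003 ± 1790 in gene trap tumors, given as mean ± SD of 5 tumors. *Mrpl33*, another bacterial counterpart, followed with 2308 ± 142 and 2734 ± 1063, and *Mrpl52*, a mitochondria-specific protein, with 1659 ± 205 and 2321 ± 1678 per kilobase. The order of *Mrpl33* and *Mrpl52* in gene trap tumors lay within their spread. Ranks were taken over all 10 tumors. Among wildtype tumors alone *Mrpl24*, with 1777 ± 92.7 per kilobase, lay above *Mrpl52*, though within their spread. The rank of *Mrpl52* above *Mrpl24* thus rested on gene trap replicate 2, where *Mrpl52* had a value of 2220. At the other end were *Mrpl47* with 132 ± 9.50 and 155 ± 18.3, *Mrpl48* with 185 ± 16.8 and 174 ± 10.6, and *Mrpl1*, a protein of the flexible stalk beside the exit site, with 187 ± 8.61 and 185 ± 5.95 per kilobase. *Mrpl48* and *Mrpl1* did not differ beyond their spread. The order also depends on the transcript taken. With the median length of coding transcripts in place of the principal one, *Mrpl48* was at 889 per kilobase and left the lowest 3, and *Mrpl20* (2397) rose to rank 3 and *Mrpl52* fell to rank 6. *Mrpl17* moved from rank 71 to rank 4, from 222 to 2181 per kilobase.

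**Figure D2:**
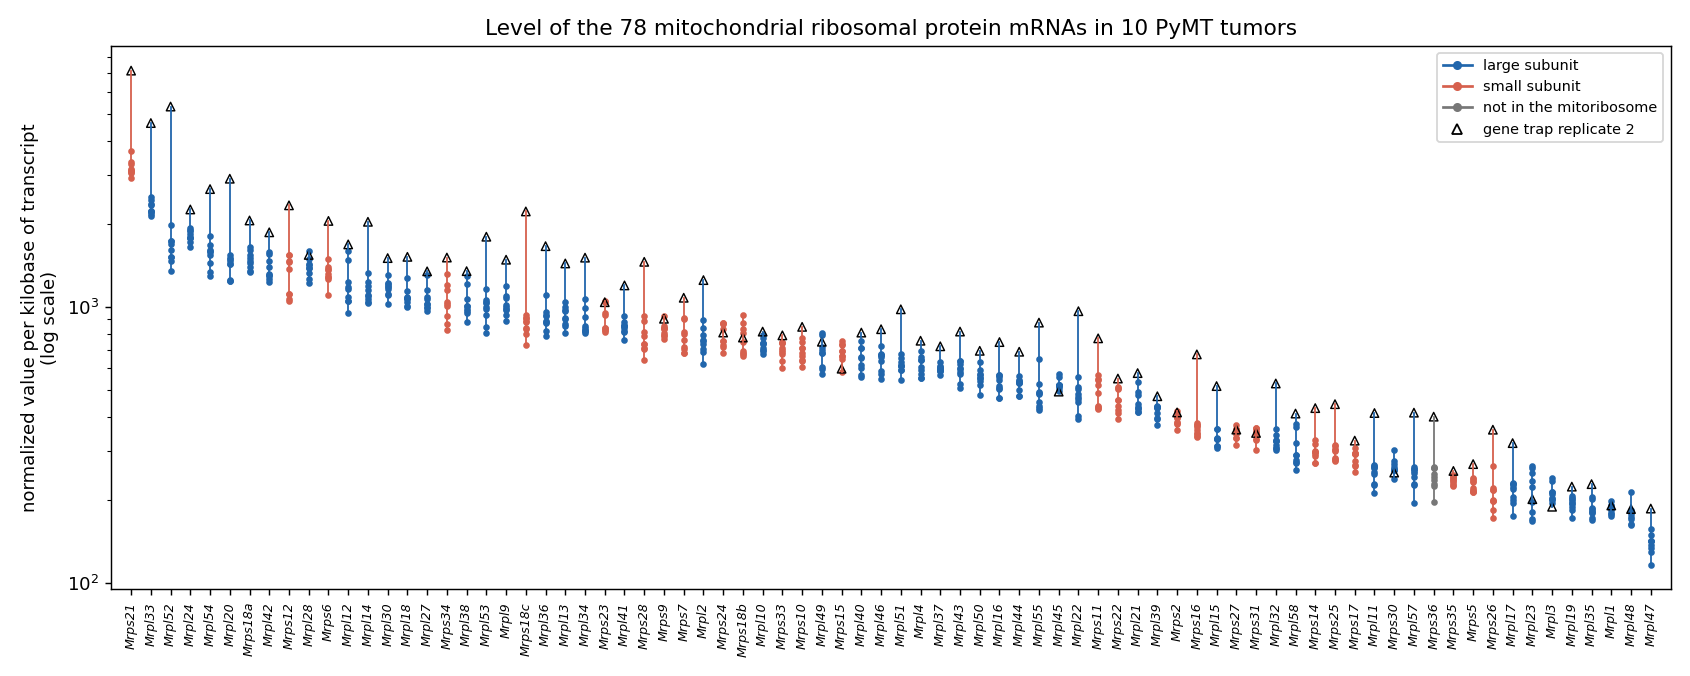
Level of each of the 78 members per kilobase of transcript (log scale) in the 10 tumors, ordered from highest to lowest, with the large subunit in blue, the small subunit in red, *Mrps36* in grey and gene trap replicate 2 as open triangles. Levels run from 143 to 3589, and most triangles lie above the points of the other 9 tumors.

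The balance between the subunits varied little. The mean level per kilobase of large subunit members over that of small subunit members averaged 1.053 in wildtype tumors (SD 0.00999, n = 5) and 1.048 in gene trap tumors (SD 0.0166, n = 5). Gene trap replicate 2 had a ratio of 1.050, inside the range of 1.022 to 1.068 of the other tumors, although its large subunit members deviated by a median of 0.49 and its small subunit members by 0.31 on the log2 scale.

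Between the groups, 0 of 78 members passed an adjusted p under 0.05 by limma, and 0% of all tested genes did. At an unadjusted p under 0.05, 1 member was higher in gene trap tumors (1.28%, compared with 1.32% of all tested genes) and 0 were lower (compared with 0.956%). The share of members that passed was therefore near that of the whole table. By direction alone, 62 of 78 members (79.5%) had a log2 fold change above 0, compared with 51.4% of all tested genes, with a median of 0.078 over the members and 0.0047 over all genes.

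This direction rested on gene trap replicate 2. Without gene trap replicate 2, 27 of 78 members (34.6%) had a log2 fold change above 0, compared with 50.1% of all genes, and the median was -0.024. At an unadjusted p under 0.05, 0 of 78 members then passed in either direction, compared with 1.89% of all genes. The largest fold change of a member in either direction fell from 0.28 to 0.17 on the log2 scale. The 44 counterparts of bacterial proteins had a median log2 fold change of 0.094 with all tumors and -0.012 without gene trap replicate 2, and the 29 mitochondria-specific members had 0.037 and -0.035. Large subunit members had 0.086 and -0.024, and small subunit members 0.075 and -0.0096.

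**Figure D3:**
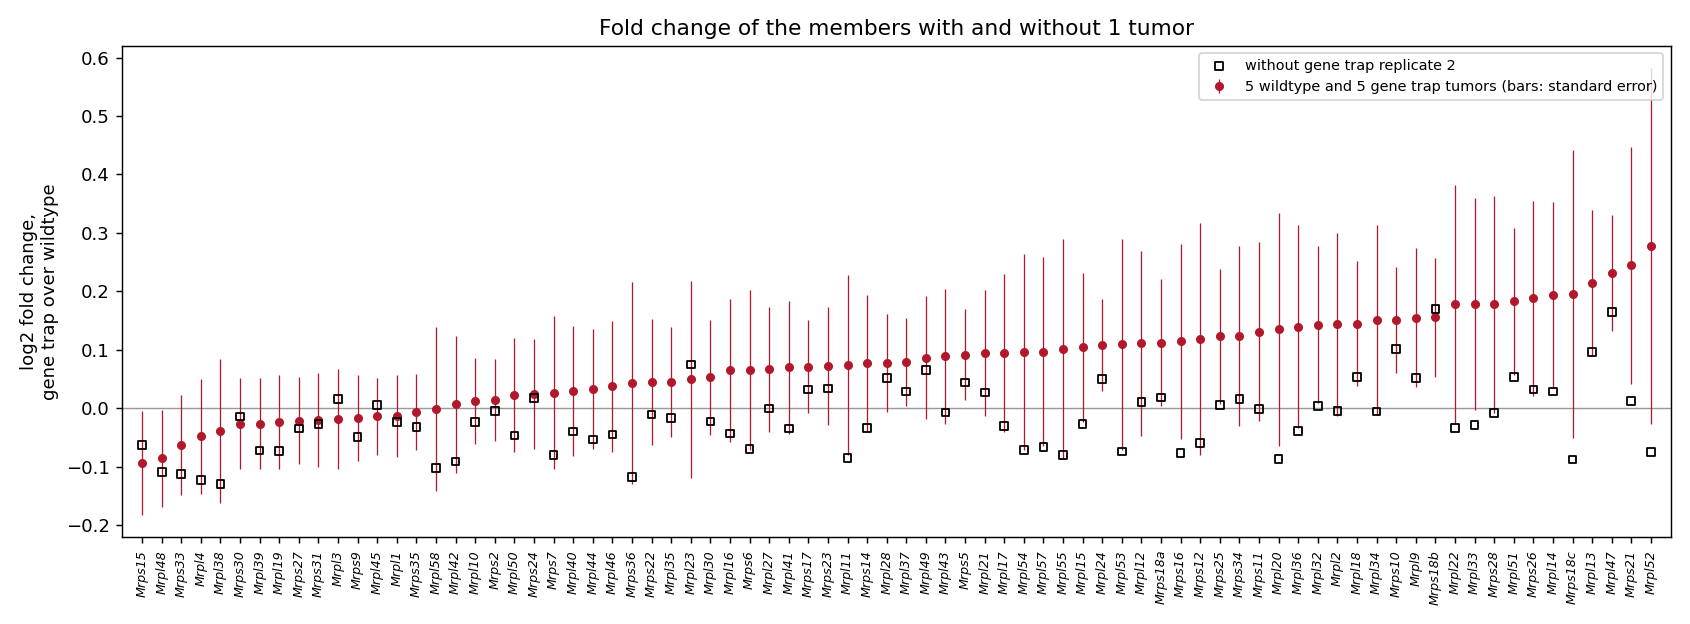
Log2 fold change (gene trap over wildtype) of the 78 members, ordered by value, with the standard error from limma (red, 5 against 5 tumors), and the same value without gene trap replicate 2 (black squares). Of the red points 62 lie above 0, and of the squares 27 do.

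*Mrpl47*, which encodes a large subunit protein with a bacterial counterpart, was the member with the smallest p. Its values were 475.7, 436.8, 392.2, 448.7 and 462.1 in the wildtype tumors and 478.7, 625.7, 476.8, 527.0 and 501.6 in the gene trap tumors. Every gene trap tumor lay above every wildtype tumor, although the nearest of them, 475.7 and 476.8, were almost equal. It was the only member whose groups did not overlap (1 of 78, compared with 0.528% of all tested genes). Its log2 fold change was 0.23 (SE 0.099, unadjusted p = 0.037 and adjusted p = 0.9997 by limma), and 0.16 (unadjusted p = 0.073 by limma) without gene trap replicate 2.

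The next smallest p-values belonged to *Mrpl13*, *Mrps10*, *Mrps18b*, *Mrpl51* and *Mrpl24*, and none was under 0.05 before adjustment. *Mrps10*, a protein of the head of the small subunit, was 676.5, 786.6, 617.3, 650.0 and 654.4 in wildtype and 691.8, 861.4, 722.3, 721.3 and 760.2 in gene trap tumors. The groups overlapped through wildtype replicate 2, and the log2 fold change was 0.15 (SE 0.091, unadjusted p = 0.12 by limma). *Mrpl51*, a mitochondria-specific protein, was 2095, 2100, 2116, 2156 and 1859 in wildtype and 2018, 3357, 2025, 2304 and 2228 in gene trap tumors. Its log2 fold change of 0.18 dropped to 0.053 without gene trap replicate 2. *Mrpl13* (0.21, SE 0.12) and *Mrpl24* (0.11, SE 0.079), both bacterial counterparts, likewise had 0.096 and 0.050 without that tumor.

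Mammals carry 3 paralogues of the bacterial S18 protein, of which *Mrps18a* sits in the large subunit and the others in the small subunit. *Mrps18c* was 536.1, 530.1, 595.5, 563.0 and 583.1 in wildtype and 462.6, 1413, 507.7, 581.7 and 568.0 in gene trap tumors. The single high value gave a log2 fold change of 0.20 (SE 0.25), which became -0.088 without it. *Mrps18b* was 714.8, 1009, 734.9, 749.5 and 729.7 in wildtype and 807.6, 835.3, 896.3, 944.0 and 871.0 in gene trap tumors. For this paralogue gene trap replicate 2 was not high, and all gene trap tumors lay above 4 of the 5 wildtype tumors. The log2 fold change of *Mrps18b* was 0.16 (SE 0.10, unadjusted p = 0.15 by limma), and 0.17 without gene trap replicate 2. Without wildtype replicate 2, the high wildtype tumor, it was 0.25 (unadjusted p = 0.0075 by limma), and 0 members passed after adjustment. That p was the smallest of 22 alternatives, and in 21 of them the unadjusted p was above 0.05 (up to 0.28 by limma). Since this fit leaves out the tumor that lies against the difference, it cannot serve as support for one. *Mrps18a* had a log2 fold change of 0.11 (SE 0.11), and 0.018 without gene trap replicate 2.

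The rise in gene trap replicate 2 was largest among the members with the shortest transcripts. *Mrpl52*, with the shortest transcript of all members (418 bases), was 673.4, 826.4, 723.4, 630.9 and 613.7 in wildtype and 565.0, 2220, 635.0, 726.0 and 705.0 in gene trap tumors. It was thus 3.29-fold above the median of the other tumors in gene trap replicate 2, and the other gene trap tumors lay within the range of the wildtype tumors or below it. *Mrps21* (488 bases) was 1612, 1502, 1485, 1635 and 1515 in wildtype and 1525, 3498, 1425, 1785 and 1534 in gene trap tumors, a 2.29-fold rise in the same tumor. The 3 members with the largest spread within groups were *Mrpl52*, *Mrps18c* and *Mrps21*, with an SD of 0.58, 0.46 and 0.38 on the log2 scale, which fell to 0.17, 0.11 and 0.10 without this tumor. *Mrpl33* (478 bases) was 2.08-fold above the others there, with 2213 against 1023 to 1191.

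The 16 members with transcripts under 800 bases deviated by a median of 0.86 in gene trap replicate 2, and all 511 tested coding genes of that length by 0.57. The 19 members from 800 to under 1200 bases deviated by 0.41 (coding genes 0.32), and the 22 members from 1200 to under 2500 bases by 0.31 (coding genes 0.11). The 21 members of 2500 bases or more broke this order with 0.50, while coding genes of that length were at -0.036. The classes take the principal transcript. In the longest class, *Mrpl11* (3045 bases) and *Mrpl17* (7300) have a median length of coding transcripts of 663 and 743.5 bases. That length is 865 bases for *Mrpl48* (4285) and 851 for *Mrps17* (5061). *Mrpl11* and *Mrpl17* deviated by 0.71 and 0.55, but *Mrpl48* and *Mrps17* by only 0.055 and 0.16. *Mrps16* (2572 bases by both lengths), the highest of the class, deviated by 0.91, and *Mrps26* (4278 by both) by 0.84. The members' median lay above that of coding genes in each class, and the 2 medians were farthest apart among the longest. Across the 78 members, Spearman's rho of the deviation with transcript length was -0.42 in gene trap replicate 2 and -0.31 to 0.32 in the other tumors, given as a description since the points share a library. Over all coding genes it was -0.31 in that tumor and -0.14 to 0.27 in the other tumors. With the median length of coding transcripts, the members' rho was -0.38 there and -0.22 to 0.34 in the other tumors. The part of transcript length, RNA quality or tumor content in these values was not tested.

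**Figure D4:**
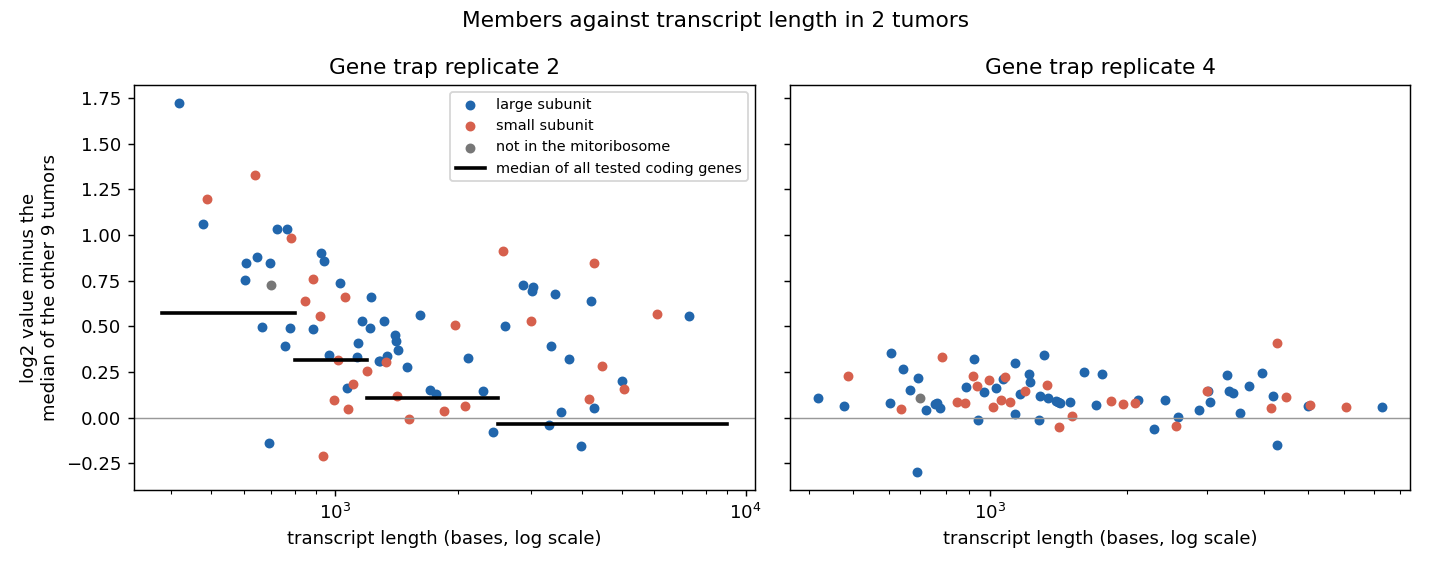
Deviation of each member from the median of the other 9 tumors (log2) against transcript length in bases (log scale), in gene trap replicate 2 (left) and, for comparison, gene trap replicate 4 (right), with black lines for the median of all tested coding genes in 4 length classes. In gene trap replicate 2 members under 800 bases have a median of 0.86 and those of 2500 bases or more a median of 0.50.

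Other families were read beside the members for the same tumor. The 79 cytosolic ribosomal protein genes deviated by a median of 0.42 there, 78 tested nuclear subunits of the respiratory chain by 0.75, and the 13 proteins encoded by mitochondrial DNA by 0.60. In the other 9 tumors these medians lay between -0.19 and 0.25. Markers of stromal cell types were not high in gene trap replicate 2: fibroblast markers (6 of 6 measured) summed to 62797 there and to 39061 to 120046 in the others, and macrophage markers (5 of 5) to 10841 and 8379 to 15505. Endothelial markers (5 of 5) summed to 2049 there and to 2280 to 4262 in the others, and markers of dividing cells (5 of 5) to 21578 and 22217 to 36335, each the lowest of the 10 tumors. All 5 endothelial markers were at their lowest there, while *Ccnb1* and *Cdk1* of the dividing cell markers were within the range of the others. The luminal sum was at its highest there, at 98856, through *Krt18* alone, which was 35379 there and 18434 to 26506 in the others. The other 4 luminal markers were within the range of the other tumors, and the median luminal marker deviated by -0.0062 on the log2 scale. The adipocyte (3 of 6 measured), skeletal muscle (4 of 5) and lymphocyte (3 of 6) marker sums of this tumor lay within the range of the others. The part of these cell types in the members' values was not tested, and in bulk tumors fewer cells of a type and less RNA per cell cannot be told apart.

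Not every member followed. *Mrpl45*, which anchors the mitoribosome at the inner membrane, was 1262, 1388, 1271, 1210 and 1252 in wildtype and 1265, 1198.8, 1234, 1351 and 1272 in gene trap tumors, with gene trap replicate 2 the lowest of all. It was among the 3 members with the smallest spread, with an SD of 0.069 on the log2 scale within groups, beside *Mrpl1* (0.058) and *Mrps35* (0.059). The median member had 0.19 and the median tested gene 0.25, and without gene trap replicate 2 these were 0.12 and 0.21. *Mrps30*, a large subunit protein in spite of its name, was not high in gene trap replicate 2 either, with 833.3 there and 787.4 to 1002 in the others.

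Members varied together from tumor to tumor. The correlations were computed for members only, so this is not shown to be particular to them. After the group means were subtracted, the median Pearson correlation of a member with the mean of the others was 0.85 over the 10 tumors and 0.66 over the 9 without gene trap replicate 2, given as a description. The number of members above 0.7 was 60 and then 34. The highest were *Mrpl53* (0.99, and 0.94 over 9 tumors), *Mrpl44* (0.98 and 0.93), whose product resembles ribonuclease III, and *Mrpl20* (0.98 and 0.92). The lowest were *Mrpl3* (-0.30 and 0.31), *Mrpl23* (-0.24 and -0.24) and *Mrpl45* (-0.099 and 0.73). Thus the low correlation of *Mrpl45* rested on 1 tumor, and that of *Mrpl23* remained without that tumor.

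*Mrpl23* has a copy that bears on its value. The pseudogene *Mrpl23-ps1* matched the *Mrpl23* transcript at 100% over 540 bases, and reads in that stretch cannot be assigned to one of them by sequence. *Mrpl23* was 161.9, 153.4, 117.6, 182.9 and 116.4 in wildtype and 135.5, 139.2, 173.7, 124.7 and 181.0 in gene trap tumors. The groups overlapped almost fully, with a log2 fold change of 0.050 (unadjusted p = 0.77 by limma). The copy averaged 1025, or 87.3% of the sum of both, and its value was 1477 in gene trap replicate 2 and 838 to 1135 in the others. The sum of both was 1.42-fold above the median of the other tumors in gene trap replicate 2, while *Mrpl23* alone was 0.908-fold. The level of *Mrpl23* is therefore uncertain.

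Of all members, 18 had at least 1 pseudogene copy in the table that matched at 95% or more over at least 200 bases, and in 9 the copies held over 10% of the sum. These include *Mrps36* (31.9%), *Mrpl48* (28.7%), *Mrpl22* (25.0%), *Mrps5* (23.7%) and *Mrps10* (21.8%). Of the 20 copies, 3 were at their highest in gene trap replicate 2, 12 at their lowest and 5 in between. Of all tested genes, 22.4% were highest and 21.8% lowest in that tumor. The copies *Gm9173*, *Gm6434*, *Gm6578* and *Gm6238* averaged under 10, below the filter on low values. For 15 of the 18 members with a copy, the gene itself was at its highest in gene trap replicate 2. The copy of *Mrps10* was 120 there and 190 to 225 in the others, and the copy of *Mrps18b* 26.8 and 66.5 to 123. With copies added, the log2 fold change of *Mrps10* was 0.10 in place of 0.15, and that of *Mrps18b* 0.11 in place of 0.16. The sum of *Mrps18b* and its copy was 862 in gene trap replicate 2, below 865 in wildtype replicate 4. By this sum, the gene trap tumors no longer all lay above 4 of the 5 wildtype tumors.

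**Figure D5:**
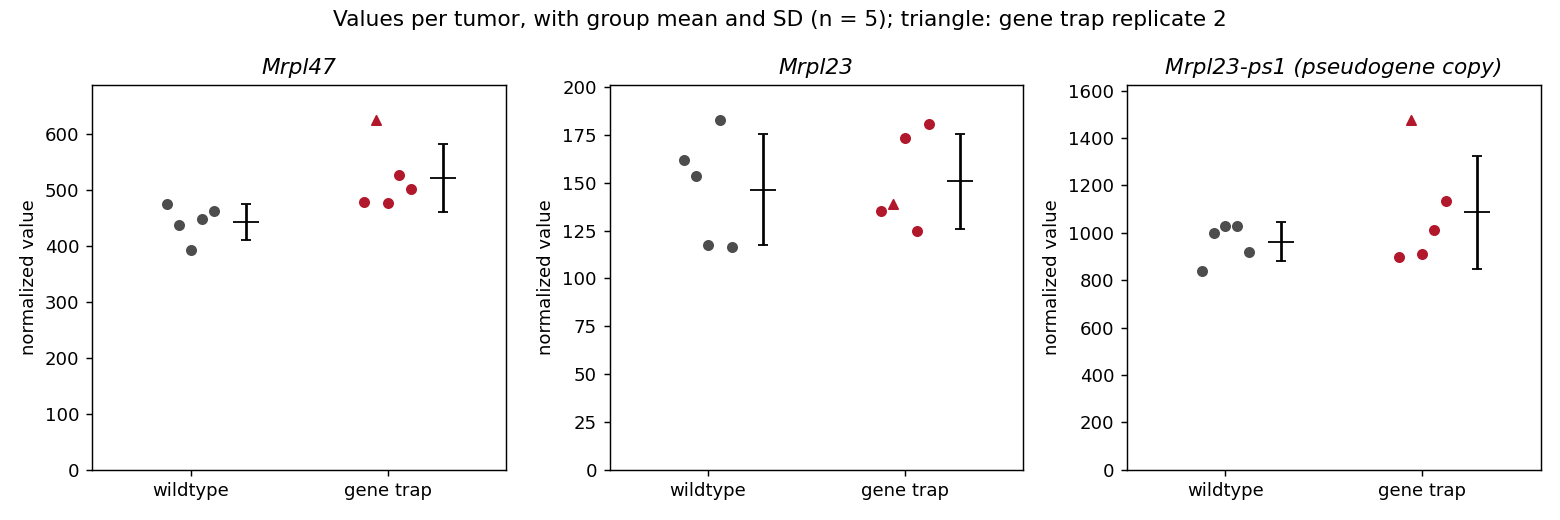
Deposited values of *Mrpl47*, *Mrpl23* and the copy *Mrpl23-ps1* in each wildtype (grey) and gene trap (red) tumor, with the group mean and SD (n = 5) and gene trap replicate 2 as a triangle. The groups do not overlap for *Mrpl47*, and the copy is higher than *Mrpl23* in every tumor.

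Neighbours with overlapping start regions were compared for 22 measured pairs of 23. *Mrpl46* and *Mrps11*, the only pair in which both genes are members, start 42 bases apart on chromosome 7. Their correlation was the highest of all pairs, 0.94 over the 10 tumors and 0.87 over the 9 without gene trap replicate 2. With the mean of the other members, *Mrpl46* correlated at 0.85 and 0.70 and *Mrps11* at 0.92 and 0.80. Genes without a shared start region were not paired, so the part of the shared start in any of these correlations was not tested. *Mrpl46* was 619.8, 747.0, 816.4, 760.2 and 720.3 in wildtype and 664.9, 940.9, 648.0, 757.0 and 767.0 in gene trap tumors. *Mrps11*, a small subunit protein, was 449.9, 576.1, 575.1, 513.5 and 462.2 and then 455.7, 811.9, 459.7, 549.8 and 596.4 in the same tumors. Both were low in wildtype replicate 1 and in gene trap replicates 1 and 3, and the groups overlapped.

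*Mrps12*, the counterpart of a bacterial decoding centre protein, starts 147 bases from *Sars2*, the mitochondrial seryl-tRNA synthetase, and their correlation was 0.81 and 0.77. *Mrps18c* and the helicase gene *Helq* showed how far 1 tumor can turn such a value, with -0.54 over 10 tumors and 0.68 over 9. The median over all pairs was 0.43 and 0.47, and pairs over 0.5 numbered 9 and 10. Of the partners, 0 had an unadjusted p under 0.05 by limma and 0 passed after adjustment.

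Members were also split by whether their window held a motif. The 34 members with at least 1 motif had a median level of 739 per kilobase and a median log2 fold change of 0.091, and the 35 without had 544 and 0.072. Without gene trap replicate 2 the fold changes were -0.0094 and -0.027. In gene trap replicate 2 the median deviation was 0.49 with and 0.34 without a motif.

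Genes that act with the mitoribosome were read from lists in the same fit. Of the other mitoribosome subunits (5 tested), assembly factors (26), mitochondrial translation factors (12 tested of 13 listed), mitochondrial aminoacyl-tRNA synthetases (17), factors of mitochondrial transcription and RNA stability (8) and nuclear regulators (10), 0 passed an adjusted p under 0.05. At an unadjusted p under 0.05 by limma, 1 of these genes was higher and 0 were lower, a share near that of all tested genes (1.32% higher and 0.956% lower). This was *Mars2*, the mitochondrial methionyl-tRNA synthetase, with 1064 ± 54.5 (SD, n = 5) in wildtype and 1205 ± 90.2 (SD, n = 5) with the gene trap. Its log2 fold change was 0.18 (SE 0.074, unadjusted p = 0.032 by limma), and 0.15 without gene trap replicate 2. In 6 of 22 alternatives its unadjusted p was above 0.05 (up to 0.085 by limma). Among the other lists the smallest p-values belonged to *Dap3*, a small subunit protein, *Rpusd4*, a pseudouridine synthase, *Mtif3*, an initiation factor, *Slirp*, which stabilizes mitochondrial messages, and *Gabpb2*, a GABP subunit. Their log2 fold changes were 0.10, 0.17, 0.17, 0.30 and 0.14. Without gene trap replicate 2, those of *Dap3*, *Mtif3* and *Slirp* were 0.065, 0.11 and 0.061. That of *Rpusd4* was 0.096 without wildtype replicate 4 and 0.10 without gene trap replicate 4.

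Members with other known roles did not pass either. *Mrpl12*, which forms the stalk that binds translation factors, was 1253, 2095, 1383, 1613 and 1533 in wildtype and 1430, 2215, 1377, 1948 and 1553 in gene trap tumors, with a log2 fold change of 0.11 (SE 0.16), and 0.010 without gene trap replicate 2. Its high values came from both groups, wildtype replicate 2 and gene trap replicates 2 and 4. *Mrpl58*, the peptidyl-tRNA hydrolase that releases stalled chains, had -0.0014 (SE 0.14), *Mrpl41* had 0.070 (SE 0.11) and *Mrps36*, the member outside the mitoribosome, had 0.043 (SE 0.17) on the log2 scale. Without gene trap replicate 2 these were -0.10, -0.035 and -0.12, so that *Mrpl41* and *Mrps36* changed sign. *Mrps36* was 280.5 in gene trap replicate 2 and 137.7 to 184.8 in the others, so that it rose there although its product is no ribosomal protein. Alone it was 1.65-fold above the median of the other tumors there, and 1.35-fold with its 2 pseudogene copies added. With the copies its log2 fold change over all tumors was -0.038 in place of 0.043.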

How the data were processed

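Total RNA from mammary tumors was isolated with Trizol, and libraries were made with the TruSeq Stranded Total RNA kit. The authors deposited 1 table of normalized values per gene, a signal that is fractional and holds 0 zeros. The submitters' processing notes name Partek, STAR (version 2.7.8a), DESeq2 and the build mm39, and the counter and annotation are not given in the sources used here. Set against the genes' geometric means, the columns had median ratios of 1.005 to 1.006, as values scaled by median ratios have. Whole reads were not recovered, so the depth per tumor is unknown and no interval that rests on it is given. A name shared with a tumor's label was found for 10 of 16 columns, and the other 6 were left out. The labels name 8 tumors per group, and values of 5 per group were used.

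Symbols were found for 22899 of 23609 gene IDs (97.0%). Values were converted to log2(value + 1), and 21034 genes with a mean of at least 10 entered a limma fit (limma 3.58.1 under R 4.3.3) on group alone, with a mean-variance trend and p-values adjusted by Benjamini-Hochberg over all of them. The calculation was tested on simulated data. Transcript lengths are those of the principal transcript in GENCODE M21, which is built on another genome build, so no gene coordinates are given beyond RefSeq promoter windows of GRCm38.p6. Copies were found with BLAST (version 2.17.0). Python 3.11.15 with matplotlib 3.10.9 drew the figures.

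Members and lists were chosen with earlier results of these data known. Genes named are *Resf1*, the 6 members with the smallest p, the 3 with the highest and lowest level per kilobase, the 3 with the largest and smallest spread, the 3 with the highest and lowest correlation with the others, the *Mrps18* paralogues, members with known roles and, from each other list, the gene with the smallest p. Copies, promoter neighbours, *Mrpl35* and members of 1 motif class that are named beside them were chosen after their values were seen. Alternatives were a replicate block, each tumor left out, other pseudocounts, filters and scalings, tumor weights, no variance trend, a correction for transcript length and 2 tumors left out together.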

Additional observations from a re-analysis of the deposited data

Results flagged for a closer look

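Of 70 groups of 5 tumors examined (35 measures in 2 groups), 12 held a tumor whose gap to the nearest other was large for the range of its group. For measures chosen without their values, chance gives about 1 in 20, or 3.5 of 70. Many of these members were chosen by their spread, p or correlation in these same tumors, so the counts cannot be compared. In 9 of the 12 it was gene trap replicate 2, at 1755.81 for *Mrpl13*, 2223.28 for *Mrpl20*, 2212.59 for *Mrpl33*, 927.696 for *Mrpl41*, 3357.01 for *Mrpl51*, 2220.19 for *Mrpl52*, 1413.37 for *Mrps18c*, 3497.55 for *Mrps21* and 2156.71 for *Slirp*, each above the other 4 gene trap tumors. The other 3 were wildtype tumors. Wildtype replicate 1 was low for *Mrpl44* at 710.22, wildtype replicate 5 was low for *Mrpl51* at 1859.18, and wildtype replicate 2 was high for *Mrps18b* at 1009.27. The 9 values share 1 tumor and are not independent of each other.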

How the results depend on the processing

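Under all 22 alternatives 0 members and 0 genes passed an adjusted p under 0.05, and members at an unadjusted p under 0.05 numbered 0 to 2. The median log2 fold change of the members lay between -0.024 and 0.13 when 1 tumor was left out, and between -0.025 and 0.085 under the others. It was below 0 without gene trap replicate 2 (27 of 78 members above 0), with tumor weights and with gene trap replicate 2 and wildtype replicate 5 both left out (25 of 78). *Mrpl52* turned to -0.0088 with tumor weights and -0.12 with both tumors left out, and ran from -0.075 to 0.42 over single tumors left out. *Mrps18c* turned to -0.045 and -0.074, and ran from -0.088 to 0.31. *Mrps18a* turned to -0.011 and *Mrpl33* to -0.0011 with both tumors left out, and *Mrpl33* ran from -0.029 to 0.25 over single tumors. Correction for transcript length raised *Mrpl52* to 0.50, *Mrpl33* to 0.35 and *Mrps21* to 0.41. It used the length trend of all tested genes, coding or not. It therefore does not show what the trend of coding genes alone would give, which was not tested. *Mrpl48* moved to 889 per kilobase with another transcript, a choice made after seeing the data. *Resf1* lay between -0.28 and -0.17, with an unadjusted p above 0.05 in 8 of 22. With the replicate number as a block the members' median was 0.078. Whether the numbers pair the tumors is unknown, since a weak correlation cannot exclude it. The deviations of same-numbered tumors correlated over 0.1 in 2 of 5 pairs, and in 1 pair each tumor was the other's best match. Limits are the unknown depth, 5 tumors per group, 1 tumor that sets most directions, and members that share reads with pseudogenes.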
